A study of Homo sapiens with 6 samples.

Results

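The HOX genes of OSC19SSZR cells are described here, from RNA sequencing of 6 samples of this human oral squamous cell carcinoma line. All genes of the deposited expression table whose symbol is HOXA, HOXB, HOXC or HOXD followed by a number were taken, which gave 39 of 61859 genes: 11 HOXA, 10 HOXB, 9 HOXC and 9 HOXD. OSC19SSZR is a line resistant to sulfasalazine, an inhibitor of the cystine transporter xCT, and the resistance is common to both groups. Cells were transfected by Lipofectamine RNAiMAX with control siRNA (n = 3) or with FOXA1 siRNA (n = 3), which targets a forkhead transcription factor, and RNA was taken after 48 h. The labels name no clone, passage or siRNA sequence and do not say whether the replicates were separate cultures. The p-values therefore speak only of the spread among these 6 libraries, and that spread may be technical.

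HOX genes encode transcription factors that bind DNA through a homeodomain and give cells their position along the axes of the embryo. They lie in clusters in which the order of the genes matches the order in which they are used, with the low numbers at the 3' end active early and towards the head, and the high numbers at the 5' end active late and towards the tail or the tip of a limb. Members with the same number in different clusters are paralogs, Polycomb and Trithorax complexes hold the clusters off or on, retinoic acid acts on the 3' ends, and many adult tissues and carcinomas keep a characteristic combination of active members, often called a HOX code.

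Levels are normalized counts, which are reads per gene divided by a size factor of the library. The libraries held 16510125 to 25732569 reads, of which 10070 in all fell on HOX genes. FOXA1 itself was at 1477, 1378 and 1459 with control siRNA and at 247, 192 and 189 after FOXA1 siRNA, which was 14.5% of the control level. Markers of squamous epithelium summed to 74091 to 78286 with control siRNA and 78767 to 82310 after FOXA1 siRNA, and all 10 had a mean of at least 10. Of these 10, 5 rose and 2 fell, against 26.8% and 25.0% of all genes tested. KRT17 (log2 fold change 1.01 ± 0.05) and DSG3 (0.65 ± 0.07) led the rises. The falls were TP63 (-0.40 ± 0.05) and KRT5 (-0.18 ± 0.04). KRT5 (27416 to 32174) and TP63 (3633 to 5029), which define basal squamous cells, were abundant, whereas KRT14 was low (16.1 to 77.2) and KRT6A stood at 802 in control siRNA replicate 3 against 38.3 to 178 in the other 5 libraries. Of 8 fibroblast markers COL1A1 had a mean of at least 10 and DCN, LUM and PDGFRA were at 0, and none of 5 leukocyte markers reached 10. Of 4 endothelial markers CDH5 was present (537 to 565 with control siRNA, 278 to 298 after FOXA1 siRNA), while KDR was at 0 and PECAM1 and VWF at 5.71 or less. COL1A1 was also lower after FOXA1 siRNA (log2 fold change -0.52), and the part of these marker differences in the HOX results was not tested.

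The shared part of the HOX family is the homeobox, which encodes the DNA-binding homeodomain. Over the whole homeobox of 180 bases, the 120 pairs among the genes tested below were 47.8% to 90.6% identical (median 62.5%). The longest identical run in the coding sequence of any such pair was 51 bases, between HOXB6 and HOXB7, and the median was 15. Reads from HOXB6 and HOXB7 that lie within that run could have been divided between them in counting, and the counting rule is not given in the sources used here.

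A mean of at least 10 normalized counts over the 6 samples was reached by 16 of the 39 genes: 9 HOXA, 3 HOXB and 4 HOXC genes. Another 15 had reads but a lower mean, and 8 had no read in any library: HOXB1, HOXB13, HOXC12, HOXD1, HOXD3, HOXD4, HOXD12 and HOXD13. A count of 0 over the 6 libraries allows up to 3 reads, or 0.0262 RPM, for counting error only. The members just above the limit were HOXA2 (mean 21.3), HOXB3 (22.1) and HOXC4 (23.3), and those just below were HOXC8 (9.28), HOXB9 (9.27) and HOXC11 (9.14). All 16 genes above it had a mean of at least 10 in both groups, so none entered through 1 group alone.

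In the control siRNA samples the line carried a HOX code led by HOXA genes. Of the summed HOX normalized counts 64.1% came from HOXA, 23.9% from HOXB, 11.8% from HOXC and 0.232% from HOXD. The 5 members with a mean of at least 100, among them HOXB7, HOXA3, HOXA10 and HOXA9, together held 74.6% of the HOX counts. All HOX genes together came to 119 CPM in the control siRNA samples and to 58.8 CPM after FOXA1 siRNA. Of the 13 positions along the clusters, 11 had at least 1 member above the limit, the exceptions being 8 and 12, and position 6 had 3 (HOXA6, HOXB6 and HOXC6).

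**Figure D1:**
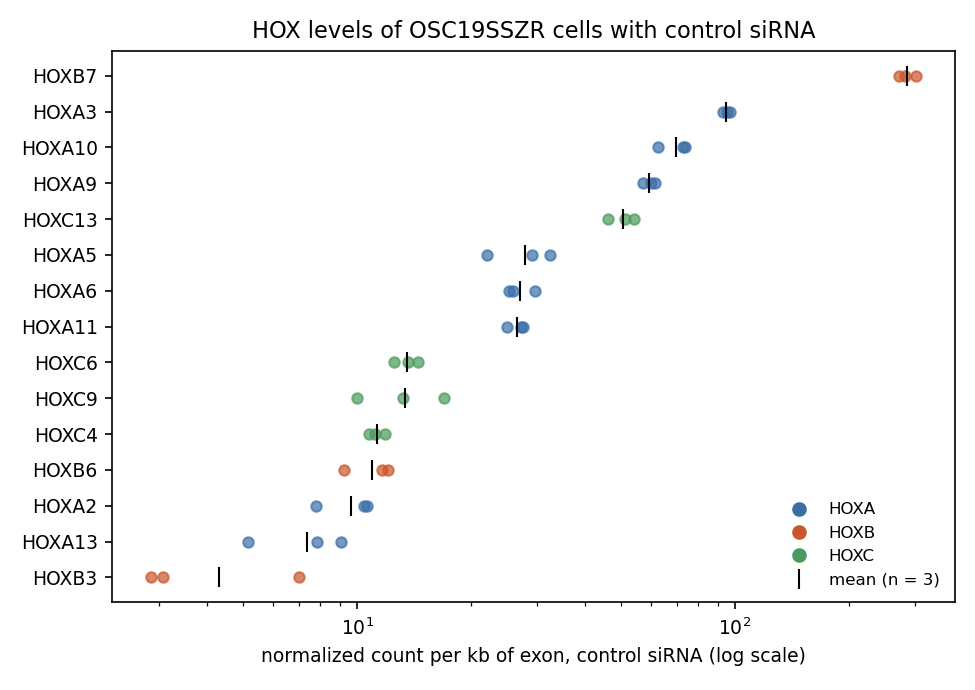
Level with control siRNA in normalized counts per kb of exon (log axis) of 15 of the 16 tested HOX genes, coloured by cluster; points are the 3 samples and the black tick is their mean. HOXB7 is at 285, HOXA3 at 94.8 and HOXB3, the lowest of those shown, at 4.31.

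To compare levels between genes, normalized counts were divided by the exon length of each gene in kb. On this scale HOXB7, a position 7 factor often high in carcinomas, had the highest level with control siRNA, 285 ± 15.2 (SD, n = 3) counts per kb. HOXA3, which acts in the pharyngeal region from which thymus and parathyroid form, was at 94.8 ± 1.96. The 5' members HOXA10 and HOXA9, both known from uterine and blood development, were at 69.8 ± 6.17 and 59.3 ± 2.17 counts per kb, and HOXC13, a regulator of hair and nail keratins, at 50.4 ± 3.91. The gaps between the levels of these named genes were each larger than the SD of either neighbour. HOXA5 (27.8 ± 5.23), HOXA6 (26.9 ± 2.35) and HOXA11 (26.6 ± 1.42) were within an SD of each other on the per kb scale.

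Below these came HOXC6 (13.5 ± 0.985 counts per kb), HOXC9 (13.4 ± 3.52), HOXC4 (11.3 ± 0.554), HOXB6 (10.97 ± 1.52) and HOXA2 (9.63 ± 1.59). HOXA13, the last HOXA gene and one of the distal limb and genital tubercle, was at 7.35 ± 1.99 and HOXB3 at 4.31 ± 2.35. With coding length in place of exon length, a scale added after the data were seen, HOXB7 was again the highest and HOXA9 and HOXA10 changed places. On that scale HOXC6 (68.0 counts per coding kb) stood above HOXA11 (65.3), HOXA5 (58.5) and HOXA6 (49.5), and HOXA2 (20.98) in place of HOXB3 (24.8) was the lowest of the tested genes. The order along the chromosome was not the order of the levels: in HOXA, HOXA4 (9 reads with control siRNA) lay low between HOXA3 and HOXA5.

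Most of the tested HOX genes were lower after FOXA1 siRNA. Of the 16 genes tested, 11 fell (68.8%), against 25.0% of all 18460 genes tested (limma on log2(normalized count + 1), Benjamini-Hochberg adjusted p under 0.05). Genes called in either direction made up 51.8% of all. None passed as higher with limma, edgeR or DESeq2, and none was higher at an unadjusted p under 0.05 with limma, against 26.8% of all genes called higher. The median log2 fold change was -0.76 over the 16 and 0.00 over all genes tested, where the fold changes of low genes are understated by the added count of 1. Among the 7221 genes whose mean lay in the range of the tested HOX genes (21.3 to 303), 27.8% were lower, 15.9% were higher and the median was -0.09. The 2 groups did not overlap and were lower after FOXA1 siRNA for 11 HOX genes, against 28.1% of all genes. A fall of at least 2-fold was called for 5 HOX genes, against 5.33% of all genes. On the recovered reads, edgeR called 11 HOX genes lower against 26.4% of all genes and DESeq2 10 against 22.5%. With equal library totals limma called 12 lower against 32.3%, and with quantile normalization 8 against 24.2%. In these bulk samples, fewer cells that use a gene and less RNA per cell cannot be told apart.

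**Figure D2:**
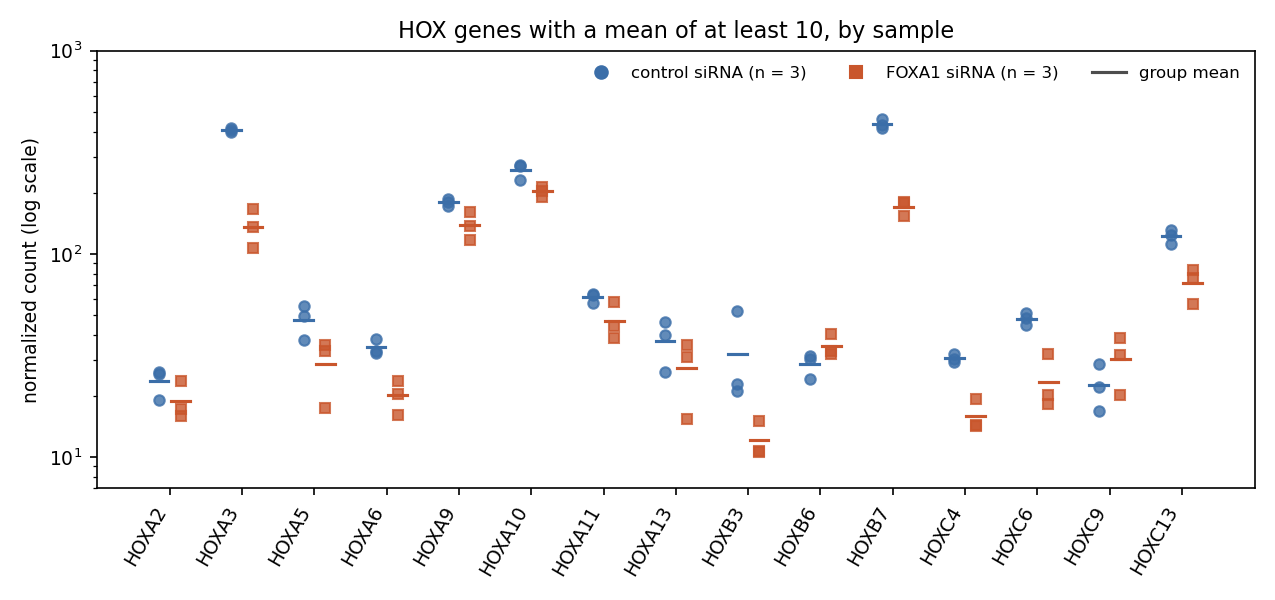
Normalized counts (log axis) of 15 of the 16 tested HOX genes in each of the 3 control siRNA samples (circles) and 3 FOXA1 siRNA samples (squares), with group means as bars. HOXA3 and HOXB7 lie at 399 to 461 with control siRNA and at 107 to 180 after FOXA1 siRNA, while the groups overlap for HOXA2, HOXA11, HOXA13 and HOXC9.

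The HOXA cluster (chromosome 7) is transcribed from the minus strand, with the 3' genes at the low coordinates and HOXA13 at the high end. Of its 9 tested genes 6 fell, against 25.0% of all genes tested, and all 9 fold changes were below 0 (median -0.48). Towards the 3' end, HOXA3 (ENSG00000105997, chr7:27106184-27152581) had 409, 399 and 416 normalized counts with control siRNA and 136, 165 and 107 after FOXA1 siRNA. Every FOXA1 siRNA sample was thus far below every control sample. HOXA3 was left at 33.3% of the control mean (log2 fold change -1.60 ± 0.12 SE, limma adjusted p = 1.17e-10).

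HOXA2, its neighbour (chr7:27100354-27102811), which patterns the second pharyngeal arch, was far lower in level, with 25.7, 19.2 and 26.2 counts against 17.2, 15.9 and 23.7. The groups overlapped and the difference did not pass (log2 fold change -0.31, 95% interval -0.94 to 0.32, limma adjusted p = 0.41). The interval does not reach the value of HOXA3.

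In the middle of the cluster, HOXA5 (chr7:27141052-27143668), a factor of lung and thoracic development, had 55.2, 49.4 and 37.7 counts with control siRNA and 35.4, 17.5 and 33.2 after FOXA1 siRNA. It fell by 0.75 ± 0.27 on the log2 scale (limma adjusted p = 0.0198), with no overlap between the groups but a gap of few counts. The call was lost in 5 of 15 alternatives, among them leaving out control siRNA replicate 1 (adjusted p = 0.0956), control siRNA replicate 2 (0.0607) or FOXA1 siRNA replicate 2 (0.164), within a range of 0.00818 to 0.164. HOXA6 (chr7:27145396-27150603) had 38.0, 33.3 and 32.4 against 16.1, 20.49 and 23.7 and fell by 0.77 ± 0.27 (limma adjusted p = 0.0203). Its call was lost in 4 of 15 alternatives, among them without control siRNA replicate 1 (0.077) and without FOXA1 siRNA replicate 1 (0.0802), within a range of 0.0094 to 0.0906. Of the exon bases of HOXA6, 40.1% are shared with other annotated genes, mainly the antisense transcript HOXA-AS3.

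Towards the 5' end, HOXA9 (chr7:27162435-27175180) had 185, 173 and 181 normalized counts with control siRNA and 137, 160 and 117 after FOXA1 siRNA. It fell by 0.39 ± 0.13 on the log2 scale (limma adjusted p = 0.0123), and the call was lost without FOXA1 siRNA replicate 3 (0.0774) and with quantile normalization (0.0812). HOXA10 (chr7:27170591-27180261) had 270.1, 273 and 232 against 214, 191 and 204, a fall of 0.34 ± 0.10 (limma adjusted p = 0.00699). Both groups were separate for HOXA9 and for HOXA10, at 77.0% and 78.6% of the control mean.

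HOXA11 (chr7:27181510-27185223), a factor of limb and uterus, had 62.8, 63.6 and 57.5 counts against 38.6, 44.0 and 58.1, and FOXA1 siRNA replicate 3 lay within the control range. The difference did not pass (log2 fold change -0.40, 95% interval -0.81 to 0.02, limma adjusted p = 0.103). It passed as lower without that replicate (0.0343) and with equal library totals (0.0429), within a range of 0.0343 to 0.382. HOXA13 (chr7:27193503-27200106) had 39.9, 26.2 and 46.0 against 35.4, 31.1 and 15.4 with overlapping groups (log2 fold change -0.48, 95% interval -1.10 to 0.13, limma adjusted p = 0.182).

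**Figure D3:**
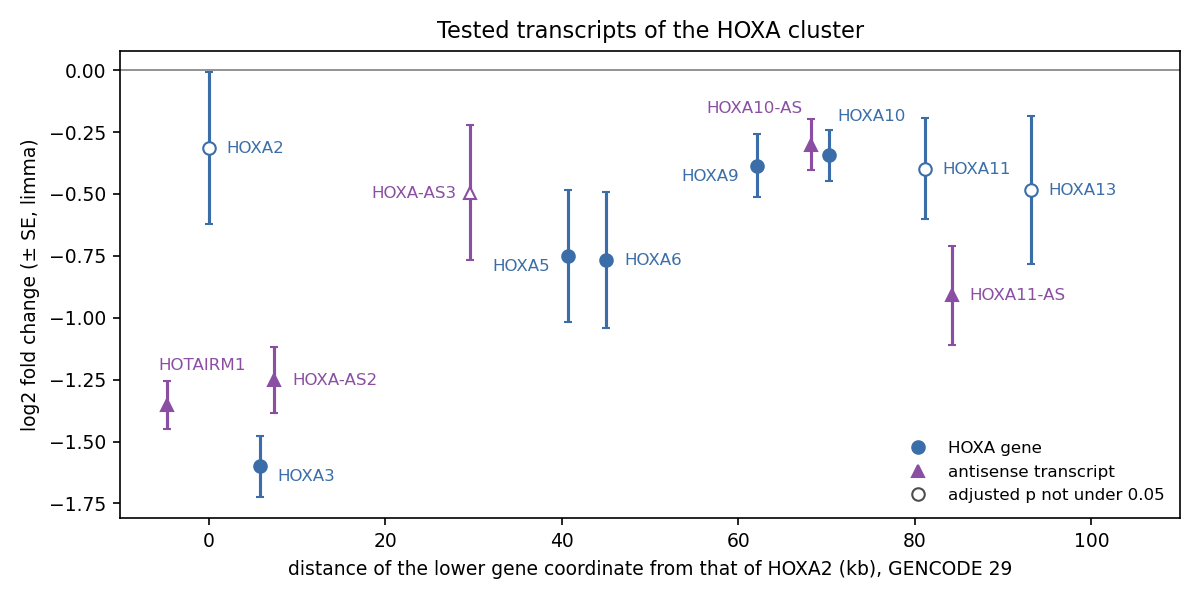
Log2 fold change (FOXA1 siRNA over control siRNA, limma, with SE bars) of 8 tested HOXA genes (circles) and of tested antisense transcripts of the cluster (triangles) against the distance in kb of the gene's lower coordinate from that of HOXA2. Open symbols did not pass the test. HOXA3, HOTAIRM1 and HOXA-AS2 lie between -1.60 and -1.25 at the 3' end, with HOXA2 at -0.31 among them, while HOXA9 and HOXA10 lie at -0.39 and -0.34.

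In the HOXB cluster (chr17:48528526-48729178, minus strand) 3 of 10 genes could be tested and 2 of them fell, against 25.0% of all genes tested. HOXB7 (ENSG00000260027, chr17:48607227-48633572) had 416, 431 and 461 normalized counts with control siRNA and 154, 180 and 178 after FOXA1 siRNA. The groups lay far apart, and HOXB7 was left at 39.2% of the control mean (log2 fold change -1.35 ± 0.10, limma adjusted p = 3.39e-12). It shares no exon base with another annotated gene.

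HOXB3 (chr17:48548870-48604912), a hindbrain factor and the paralog of HOXA3, had 22.8, 21.2 and 52.3 against 15.01, 10.6 and 10.7. Control siRNA replicate 3 stood above the other controls, as it did for KRT6A, and the part of that library in the result was measured by leaving it out. The log2 fold change was -1.23 ± 0.35 (limma adjusted p = 0.00445) with it and -0.83 (adjusted p = 0.0869) without it, so the call rests on that library. HOXB6 (chr17:48595751-48604992), which patterns the trunk, had the opposite order, with 31.4, 30.3 and 24.1 counts against 33.2, 40.2 and 32.02. Each FOXA1 siRNA sample was above each control, as for 29.5% of all genes, but the difference did not pass (log2 fold change 0.29, 95% interval -0.22 to 0.81, limma adjusted p = 0.343). HOXB6 shares 433 exon bases with HOXB3 on the same strand and 425 with the antisense transcript HOXB-AS3. Reads from there cannot be assigned to 1 gene with certainty.

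In the HOXC cluster (chr12:53938765-54056030, plus strand) 3 of 4 tested genes fell, against 25.0% of all genes tested. HOXC13 (chr12:53938765-53946544), at its 5' end, had 124, 112 and 131 normalized counts with control siRNA and 76.1, 83.5 and 56.9 after FOXA1 siRNA, a fall of 0.77 ± 0.16 on the log2 scale (limma adjusted p = 2.57e-04). HOXC6 (chr12:53990624-54030823) had 51.4, 44.4 and 48.1 against 32.2, 18.2 and 20.2 and fell by 1.04 ± 0.26 (limma adjusted p = 0.00126). HOXC4 (chr12:54016931-54056030) had 30.4, 32.3 and 29.3 against 19.3, 14.4 and 14.2 and fell by 0.91 ± 0.29 (limma adjusted p = 0.0107). None of these 3 genes had overlapping groups, where 28.1% of all genes were lower without overlap. HOXC4 and HOXC6 share 484 exon bases on the same strand, so reads from there belong to either.

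HOXC9 (chr12:53994895-54003337), which lies within the annotated span of HOXC6, did not follow it. It had 28.5, 22.2 and 16.7 counts against 38.6, 31.9 and 20.2, with overlapping groups (log2 fold change 0.39, 95% interval -0.22 to 1.01, limma adjusted p = 0.283).

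The HOXD cluster (chr2:176092891-176190907, plus strand) was nearly silent, with 33 reads over its 9 genes and 6 libraries. HOXD8, with a mean of 3.45, had 8 of these reads with control siRNA and 14 after FOXA1 siRNA.

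**Figure D4:**
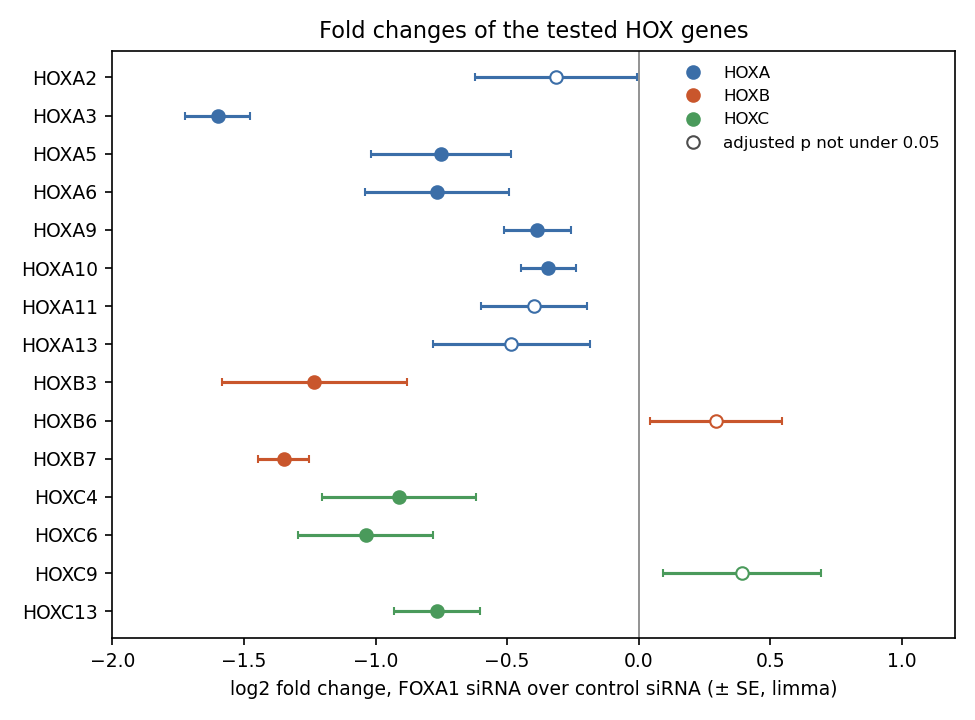
Log2 fold change of 15 of the 16 tested HOX genes with its SE (limma, FOXA1 siRNA over control siRNA, n = 3 each), coloured by cluster; open circles did not pass the adjusted threshold. HOXA3 is the lowest of those shown at -1.60, and HOXB6 (0.29) and HOXC9 (0.39) are the 2 above 0.

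Grouped by level, all 5 members with a mean of at least 100 fell, and 6 of the 11 with a mean between 10 and 100. The share of all genes tested was 25.0%, not split by level. Of the 11, 9 had a fold change below 0. The SE of the fold change was larger at lower levels (Spearman correlation with the mean -0.95, n = 16). This SE comes from limma with trend, which draws each variance towards a trend with level, so the correlation is partly set by the method. The difference between the 2 groups of level was not tested.

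The 39 genes summed to 2228, 2117 and 2161 normalized counts in the control samples and to 1173, 1202 and 1048 after FOXA1 siRNA, or 52.6% of the control mean. HOXA went from 1391 ± 70.8 to 729.5 ± 48.7 (SD, n = 3 each), HOXB from 517 ± 34.7 to 239.9 ± 18.8 and HOXC from 255 ± 9.44 to 166 ± 23.0. The groups did not overlap for any of these 3 sums. The sums rest on few members. Most of the HOXB fall lay in HOXB7, whose mean went from 436 to 171. A large part of the HOXA fall lay in HOXA3 (408 to 136). The HOXD sum was 5.05 ± 3.19 and 5.49 ± 4.96 with overlapping groups. As a share of HOX counts, HOXA held 64.1% and 63.9%, HOXB 23.9% and 21.1%, and HOXC 11.8% and 14.5% in the respective groups.

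**Figure D5:**
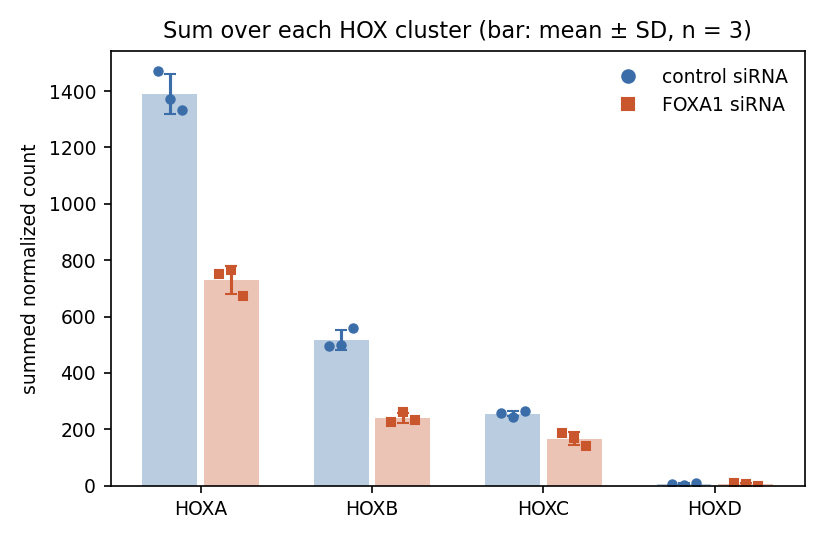
Summed normalized counts of each HOX cluster by sample (points) with the group mean as a bar from 0 and the SD as the error bar (n = 3 per group). HOXA goes from 1391 to 729.5, HOXB from 517 to 239.9 and HOXC from 255 to 166, and HOXD is at 5.05 and 5.49.

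The 23 genes with a mean under 10 held 186 reads with control siRNA and 184 after FOXA1 siRNA and were not tested. HOXC8 had 10.4 ± 2.87 normalized counts with control siRNA and 8.17 ± 3.45 after FOXA1 siRNA (SD, n = 3 each), HOXB9 6.56 ± 3.40 and 12.0 ± 4.48, HOXC11 9.04 ± 2.79 and 9.24 ± 6.503. HOXC5 (mean 8.71), HOXB5 (5.83), HOXB8 (4.72) and HOXA4 (3.57) were the other members, beside HOXD8, with a mean of at least 2. These values are too low to say whether the groups differ.

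The authors' deposited table of their own comparison gave an adjusted p for 24 HOX genes and called 7 of them lower, against 17.6% of all genes with an adjusted p there. All 7, which include HOXA3, HOXA10, HOXB3, HOXB7, HOXC6 and HOXC13, are among the 11 called here. The authors' deposited table had log2 fold changes of -1.57 for HOXA3 and -1.35 for HOXB7.

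The noncoding transcripts of the clusters were looked at beside the genes. Of 22 listed, 18 were in the table and 8 could be tested, of which 4 fell, against 25.0% of all genes tested, and 4 did not pass (median log2 fold change -0.52). HOTAIRM1, which lies at the 3' end of the cluster on the other strand (chr7:27095647-27100265) and is known for its role in HOXA activation, had 494, 469 and 449 normalized counts against 208, 178 and 167 (log2 fold change -1.35 ± 0.10, limma adjusted p = 3.19e-12). HOXA-AS2, antisense to HOXA3, had 229, 209 and 215 against 77.2, 106 and 91.3 (-1.25 ± 0.13, limma adjusted p = 7.7e-09). At the 5' end HOXA11-AS fell by 0.91 ± 0.20 (limma adjusted p = 3.48e-04), while HOXA11 was lower by 0.40 and did not pass. The difference between these transcripts was not tested, and 31.1% of the exon bases of HOXA11 are shared with HOXA11-AS. HOXA10-AS fell by 0.30 ± 0.10 (limma adjusted p = 0.0171, range over its alternatives 0.00218 to 0.0942). Of its exon bases 36.8% are shared with HOXA10 and 25.5% with HOXA9, so its value is not independent of theirs.

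The other 4 tested noncoding transcripts, HOXA-AS3 (log2 fold change -0.50), HOXB-AS3 (-0.49), HOXC-AS2 (-0.41) and HOXC13-AS (-0.54), did not pass. Without strand information, reads where a gene and its antisense partner overlap cannot be told apart. Counting overlaps with annotated genes of either strand, 13 of the 16 tested HOX genes share exon bases, at up to 40.1% of their exons, and HOXA2, HOXA5 and HOXB7 share none. HOXA3 shares 8.69% of its exon bases with HOXA-AS2 and 6.69% with HOXA-AS3, both antisense. It also shares 8.78% with AC004080.6 and 6.83% with AC004080.5, both on its own strand.

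HOX proteins bind DNA with TALE homeodomain partners of the PBX, MEIS and PKNOX families. Of 9 listed, 7 were tested and 6 fell, against 25.0% of all genes tested, with a median log2 fold change of -0.29. The calls of PBX2 and PKNOX1 held in 13 of 16 alternatives each, with an adjusted p of up to 0.107 and 0.0927. MEIS3, a hindbrain regulator of HOX genes, had 132, 108 and 128 normalized counts against 20.4, 16.7 and 17.8, a log2 fold change of -2.68 ± 0.21. MEIS2, the more abundant family member, went from 1049 ± 42.6 to 614 ± 17.5 (SD, n = 3 each, -0.77 ± 0.07). PBX3, named after its values were seen, was the tested partner that did not pass (-0.02, limma adjusted p = 0.898).

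Genes of the complexes that keep HOX clusters silent or active were read against all genes tested, of which 26.8% rose and 25.0% fell. Of 29 Polycomb genes 14 rose and 8 fell (median log2 fold change 0.19), so that the number that fell was near that share. PCGF5 (0.88 ± 0.12), a ring finger subunit of Polycomb complex 1, and EZH2 (0.63 ± 0.07), the methyltransferase of complex 2, rose most, and the chromobox genes CBX7 (-0.86 ± 0.12) and CBX8 (-0.67 ± 0.09) fell most. Of 19 Trithorax genes and HOX-activating cofactors 11 rose and 5 fell (median 0.18), the falls again near the share of all genes. WDR5 (0.41 ± 0.06), a core subunit of the MLL methyltransferases, and AFF1 (0.38 ± 0.06) rose, and AFF4 (-0.86 ± 0.06), a scaffold of the super elongation complex, and the H3K27 demethylase gene KDM6B (-0.55 ± 0.07) fell.

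Retinoic acid genes were listed because this signal acts on 3' HOX genes. Of 12 tested, 4 fell and 1 rose (median log2 fold change -0.03), against 25.0% and 26.8% of all genes tested. ALDH1A3, which makes retinoic acid and is highly expressed in this line, went from 23209 ± 136 to 10568 ± 239 normalized counts (-1.14 ± 0.04), and DHRS3, which returns retinal to retinol, from 2530 ± 46.8 to 1294 ± 34.97 (-0.97 ± 0.05). The receptor gene RARG rose by 0.16 ± 0.07 (limma adjusted p = 0.0423, up to 0.448 over its alternatives). Of 11 boundary and loop factors 5 rose and 1 fell, against the same shares of all genes. PDS5A (0.38 ± 0.05) and SMC3 (0.25 ± 0.06) rose most, and CTCF fell (-0.22 ± 0.05). The 3 CDX genes, activators of trunk HOX genes in the embryo, had no read.

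The clusters also hold microRNA genes, of which the miR-196 family targets HOX transcripts. Mature sequences from RefSeq (GRCh38.p14) are shown with the seed, bases 2 to 8, in capitals.
miR-196b-5p (HOXA cluster, chr7:27169528-27169549): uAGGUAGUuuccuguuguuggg
miR-196a-5p (HOXB and HOXC clusters): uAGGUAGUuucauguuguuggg

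The 2 miR-196 sequences share their seed, and its match, ACTACCT on the transcript strand, was found in the 3' UTR of 9 of 39 HOX genes (23.1%), against 7.78% of 12807 tested genes with a 3' UTR. The median 3' UTR was 866 bases for HOX genes and 1314 for those genes. The 2 sets are unlike in level, since the 39 include the 23 HOX genes with a mean under 10. Among the HOX genes with the match, HOXB1 and HOXB13 had no read. Tested members with the match included HOXA5, HOXA9, HOXB6 and HOXB7. A window that ends in the match is shown for HOXA9 and HOXB7, capitals marking it.
HOXA9: aacaaaaggaaagaaACTACCT
HOXB7: caacactgaaaaaatACTACCT

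A match is a description and not a measured site. The table's row for the miR-196b precursor gene MIR196B had 46.0 to 72.6 normalized counts with control siRNA and 43.9 to 69.8 after FOXA1 siRNA (log2 fold change -0.09, limma adjusted p = 0.755), and it was looked up after the other values were seen. Its sequence lies within exons of HOXA9 and HOXA10-AS, so reads from these transcripts cannot be told apart there, and the mature microRNAs were not measured.

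Since FOXA1 binds forkhead motifs, the words TGTTTAC and TGTTTGC were searched on both strands of RefSeq promoters, from 250 bases before to 50 after the start (GRCh38.p14). Windows were found for 20 HOX genes, 8 of them tested. Of their 27 windows 2 (7.41%) held a word, against 7.17% of 35116 promoters of the same length. Both are the 1 window that HOXC4 and HOXC5 share (chr12:54016638-54016937, plus strand), which holds 2 words. The stretch around the first is gagagaattggGTAAACAtggcgaccgcg, in which capitals mark TGTTTAC on the other strand. No match says only that these letters are not in this window.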

How the data were processed

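RNA of 6 samples was sequenced after NEBNext Ultra library preparation, per the labels' protocols. HISAT2, DESeq2 and the builds GRCh38 and GRCm38 are named without versions or roles, per the submitters' processing notes. Strand use and the counting rule are not given in the sources used here. The deposited values are a normalized signal, a count divided by a size factor, per the file headers. The authors also deposited log2 fold changes with standard errors on the log2 scale, a test score, p-values and adjusted p-values.

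Of 61862 lines 3 were broken and left out. Dividing by the smallest step gave whole reads (within 0.01 read) for 100% of the values, so reads could be recovered. The test was limma 3.58.1 (R 4.3.3; trend and robust) on log2(value + 1) for the 18460 genes with a mean of at least 10, with Benjamini-Hochberg adjustment over all of them at 0.05, tested on simulated data. Alternatives were pseudocounts of 0.5 and 5, no filter, a mean of at least 50, equal totals, quantile normalization, limma without trend and robust, a block for the replicate number, leaving out each sample, and edgeR 4.0.16 (quasi-likelihood, TMM) and DESeq2 1.42.0 on recovered reads. The authors' table and coding length were added after the data were seen. Sums over members got no test.

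The members and all lists were chosen with earlier results of these data known. Named were every HOX gene with a mean of at least 10, those below it nearest the limit or with a mean of at least 2, the tested noncoding transcripts, FOXA1, and up to 2 risen and 2 fallen members with a mean of at least 50 of each other list. Of these, 1 HOX gene is counted in all totals but not reported here. Exon lengths, overlaps, coding sequences and 3' UTRs came from GENCODE release 29.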

Additional observations from a re-analysis of the deposited data

How the results depend on the processing

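Of the 11 HOX calls, 7, which include HOXA3, HOXA10, HOXB7, HOXC4, HOXC6 and HOXC13, held in all 15 planned settings that keep the 16 genes. The number called lower was 12 with equal library totals, 8 with quantile normalization, 10 without trend and robust, 11 with edgeR and 10 with DESeq2 on recovered reads, and 9 to 11 with each replicate left out. A mean of at least 50 left 7 genes to test, of which 6 were lower, and the authors' deposited table called 7. None was higher in any setting. With the replicate number as a block, 11 were lower. Deviations of samples with the same number correlated at -0.010, 0.011 and -0.011 over all genes tested. These values show no pairing by number but cannot exclude a weak one. Equal library totals moved the median of all tested genes to -0.09 and the log2 ratio of the summed counts from -0.93 to -1.02 for all HOX genes and from -0.93 to -1.03 for HOXA. Of 263 fold changes of tested HOX genes under the alternatives, those of the authors' deposited table included, 245 kept their side of the threshold, 16 lost the call, 2 gained it and none reversed. At the depth of these libraries, members under 10 normalized counts could not be compared.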

Other observations

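Homeobox genes outside the HOX clusters were listed beside the HOX genes, with head and oral epithelium in mind. Being on the list does not say where a gene is mainly used. Of 31 listed, 17 were tested, and 4 rose and 4 fell with FOXA1 siRNA (median log2 fold change -0.14, limma), near the 26.8% and 25.0% of all genes tested. EN2 rose from 38.9 ± 6.63 normalized counts to 61.2 ± 1.77 (SD over 3 samples; log2 fold change 0.66 ± 0.21) and BARX2, a factor of salivary and oral epithelium, from 331 ± 26.3 to 445 ± 17.3 (0.43 ± 0.09). IRX4 went from 343 ± 18.5 to 203 ± 16.9 (-0.75 ± 0.10). MSX1, a factor of tooth and palate development, had 58.0, 67.6 and 56.5 counts against 48.2, 50.8 and 29.7 (-0.52 ± 0.22, limma adjusted p = 0.0465), and its adjusted p reached 0.28 over its alternatives. The other falls, named after their values were seen and with means under 50, were DLX4 (-1.55 ± 0.38) and DLX3 (-0.60 ± 0.25). For DLX3 the adjusted p reached 0.203 over its alternatives.

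Genes that flank the HOX clusters on the chromosome were listed too: of 12 tested, 4 fell and 2 rose (median log2 fold change -0.11), against 25.0% and 26.8% of all genes tested. SNX10, near HOXA, fell by 0.90 ± 0.14 and CBX1, near HOXB, by 0.67 ± 0.06, while ATP5MC3 (0.39 ± 0.05) and LNPK (0.30 ± 0.07), near HOXD, rose.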
